A study of Mus musculus with 8 samples.

Results

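Imprinted genes are transcribed mainly or wholly from the copy inherited from a single parent, because DNA methylation laid down in the egg or in the sperm lineage marks the parental copies differently. They tend to lie in clusters that share an imprinting control region, a stretch of DNA methylated on the copy of a single parent, and many of them regulate growth, placental development or metabolism. In the male germ line the inherited marks are erased in the fetus and paternal marks are set before birth, so spermatogonia carry the paternal pattern on both copies. The 45 mouse genes described here were taken by symbol from a list of known imprinted genes, chosen with earlier results of these data known. All 45 were found among the 55421 genes of the count table. By the parental copy known to be active, 26 are paternally expressed and 18 maternally expressed, and *Gnas* is a complex locus with transcripts of both kinds. The table holds a total per gene, so which parental copy a read came from was not measured.

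RNA-seq was performed on spermatogonial stem cell (SSC) cultures, primary cultures of undifferentiated spermatogonia from the testes of 6-day-old C57BL/6 X DBA/2 F1 hybrid pups. They were grown on mouse embryonic fibroblast (MEF) feeder cells in complete SSC medium, which held 10 ng/ml bFGF and also GDNF. Veh cultures were kept in complete SSC medium, RA cultures received 100 nM retinoic acid in that medium, NR (nutrient restriction) cultures were kept in 90% Earle's Balanced Salt Solution (EBSS) and 10% complete medium, and NRRA cultures received 100 nM RA in the restricted medium. The study's recipe makes the restricted media by diluting complete medium, so they also held less bFGF and GDNF. A response to less of these factors and a response to less nutrient cannot be told apart here. All cultures were of wild-type genotype, were treated for 2 days, and are represented by 2 libraries per condition, described by the study as independent biological replicates. The comparisons ask how RA, NR and their combination alter these genes, and whether the response to RA differs between the media.

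The libraries held 19261333 to 30023585 counts assigned to genes. Germ cell markers were present throughout, at a summed level of 1023 to 1324 CPM (counts scaled to library size), and Sertoli and Leydig cell markers summed to at most 10.5 and 15.2 CPM. Markers of undifferentiated spermatogonia summed to 867 and 934 CPM in Veh, 331 and 339 with RA, 762 and 780 with NR, and 156 and 157 with NRRA. Markers of fibroblasts, the feeder cell type, summed to 12290 and 12520 CPM in Veh, 9689 and 10440 with RA, 25010 and 26310 with NR, and 21730 and 22360 with NRRA. All 14 fibroblast markers were detected in every library, and their sum was highest in the restricted conditions. The collagen genes Col1a1, Col1a2 and Col3a1 were its largest terms in every condition, so ratios to this sum follow them most. Macrophage markers summed to 93.5 to 136 CPM and were highest in NR.

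All 45 imprinted genes passed the filter on low counts, among 20477 genes tested. Together they took 0.329 and 0.333% of the counts in Veh, 0.330 and 0.337% with RA, 0.395 and 0.398% with NR, and 0.455% in both NRRA libraries. In bulk libraries, a change in the number of cells of a type and a change in RNA per cell cannot be told apart, and this holds for every gene below. Igf2r and Gnas supplied 20.7% and 19.8% of the members' counts over all libraries. The only scale used here to compare genes is RPKM, which is CPM per kilobase of the union of all annotated exons of a gene. A gene whose main transcript is much shorter than that union is placed too low on it. The union is 11186 bases for Gnas and 9308 for Igf2r, and their order depends on these lengths. On this scale Igf2r stood first in Veh at 90.7 ± 0.270 (SD, n = 2), followed by Gnas at 78.8 ± 0.700 and H19 at 43.9 ± 3.10. H13 (23.2 ± 0.862), Ndn (21.6 ± 1.23), Osbpl5 (21.2 ± 0.205) and Grb10 (20.8 ± 0.171) came next, and among these 4 the ranges of 1 SD around the mean overlapped between neighbours in the order. The lowest were Magel2 at 0.0594 ± 0.0522, Usp29 at 0.122 ± 0.00157 and Dio3 at 0.137 ± 0.0482 RPKM. In NRRA the order was H19 at 134 ± 5.50 RPKM, Igf2r at 85.65 ± 0.556, Gnas at 60.9 ± 0.0854, Grb10 at 45.5 ± 0.496 and Peg3 at 34.5 ± 0.115, the last beside 3.11 ± 0.204 in Veh.

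**Figure D1:**
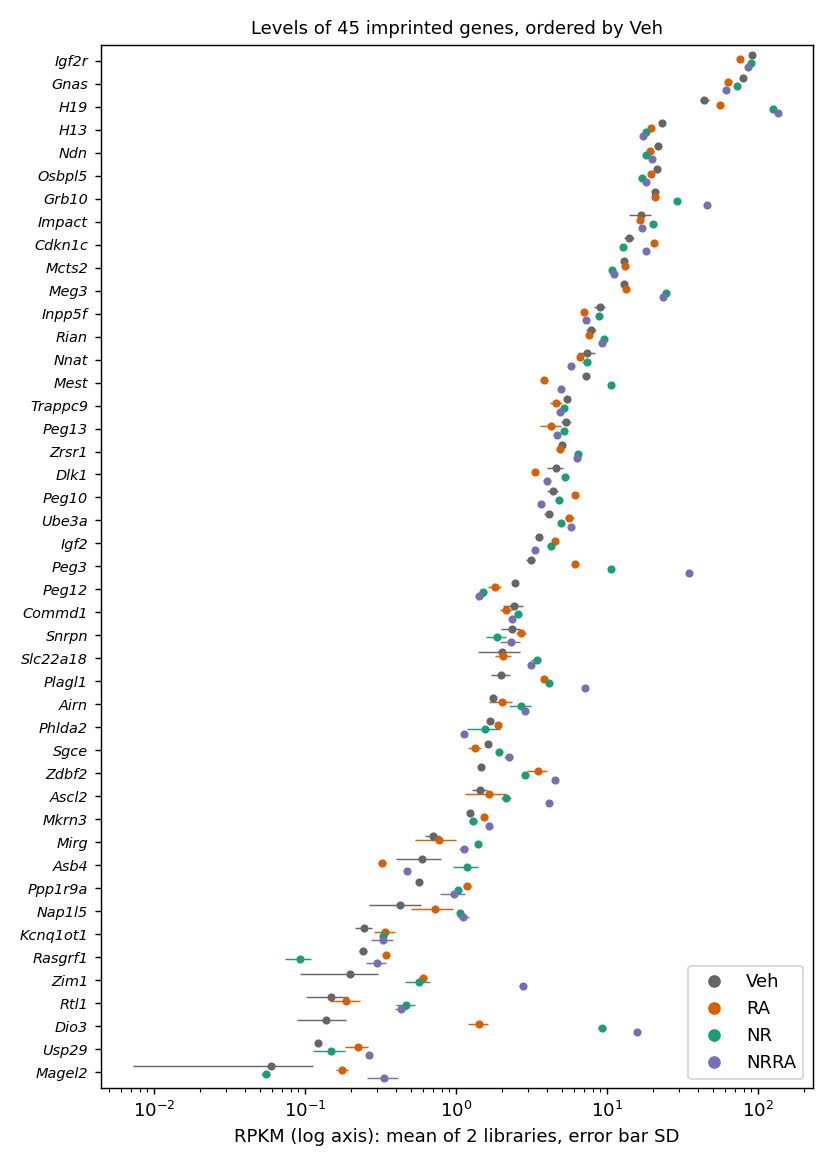
Level of each of the 45 imprinted genes in RPKM (log axis), as the mean of 2 libraries with the SD as error bar, for Veh (grey), RA (orange), NR (green) and NRRA (purple), ordered by the Veh mean. Igf2r (90.7 RPKM) and Gnas (78.8 RPKM) lead in Veh, and Dio3, Peg3 and Zim1 show the widest gaps between Veh and NRRA.

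A gene was counted as called when its adjusted p from edgeR's quasi-likelihood test was under 0.05 and it differed by at least 2-fold, and as passing when the adjusted p alone was under 0.05. In NRRA vs Veh, 12 of the 45 imprinted genes were called higher and 0 lower, while 9.91% of all genes tested were called higher and 6.02% lower. The 12 were Dio3, Zim1, Peg3, Magel2, Plagl1, Zdbf2, H19, Rtl1, Ascl2, Nap1l5, Grb10 and Usp29. In NR vs Veh, 7 were called higher (Dio3, Peg3, Rtl1, Zim1, H19, Nap1l5 and Plagl1) and 1 lower (Rasgrf1), against a background of 5.33% and 2.96%. In RA vs Veh, 5 were called higher (Dio3, Zim1, Magel2, Zdbf2 and Ppp1r9a) and 0 lower, against 4.74% and 2.75%. The 3 comparisons share the Veh libraries and are therefore not independent of each other.

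By the adjusted p alone, 15 imprinted genes were higher and 12 lower in RA vs Veh, where 19.8% and 23.4% of all genes passed. The counts were 25 higher and 7 lower in NR vs Veh, with 21.7% and 22.2% of all genes passing, and 24 higher and 11 lower in NRRA vs Veh, with 30.1% and 28.7%. The median log2 fold change of the 45 was 0.07 in RA vs Veh, 0.28 in NR vs Veh and 0.34 in NRRA vs Veh, beside all-gene medians of -0.02, 0.0057 and 0.03. Since the 45 were chosen with earlier results known, these contrasts are not those of a blind selection. For 25 tested imprinted genes outside the 45 the medians were -0.07, 0.05 and -0.06. Of these 25, NRRA vs Veh had 7 called higher and 1 lower, beside 9.91% and 6.02% of all genes. Both parental classes held called genes. Among the 26 paternally expressed genes, 3 were called higher with RA (4.74% of all genes), 5 higher and 1 lower with NR (5.33% and 2.96%), and 8 higher with NRRA (9.91%), with medians of 0.26, 0.25 and 0.32. Among the 18 maternally expressed genes, 2, 2 and 4 were called higher and 0 lower, with medians of 0.03, 0.38 and 0.43, and the difference between the classes was not tested.

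**Figure D2:**
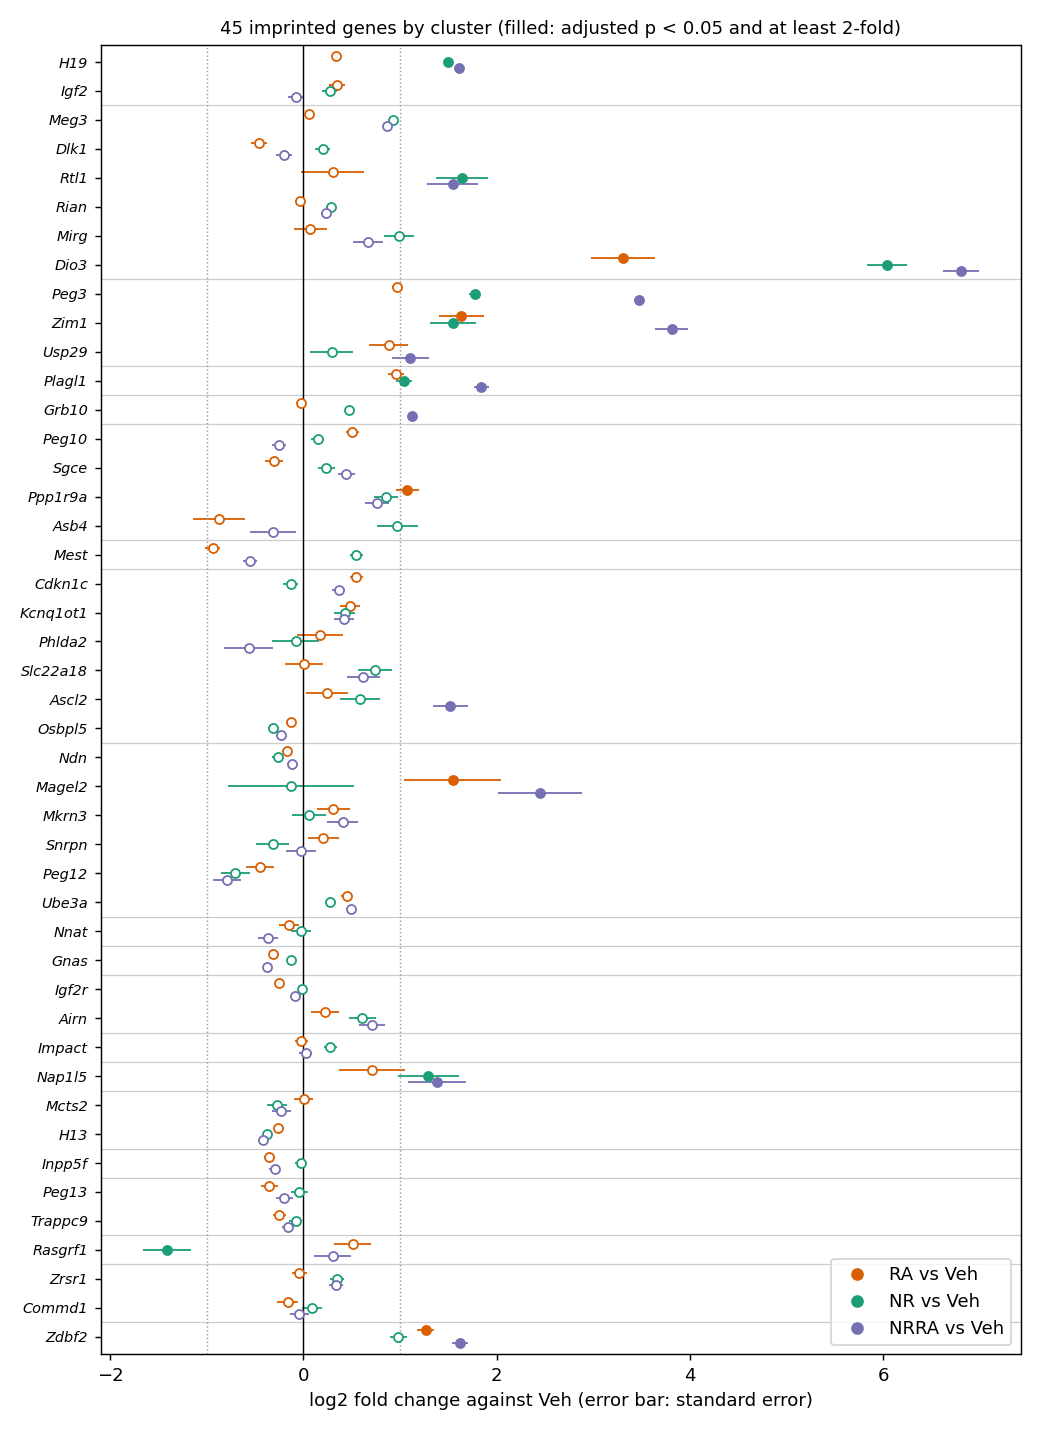
Log2 fold change of each of the 45 imprinted genes in RA (orange), NR (green) and NRRA (purple) against Veh, with the standard error as bar, grouped by imprinted cluster (grey lines). Filled symbols are called; dotted lines mark 2-fold. Dio3 lies farthest to the right in all 3 comparisons, and Rasgrf1 in NR is the only filled symbol on the left.

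In the Peg3 cluster on proximal chromosome 7, Peg3 and Zim1 rose with each treatment and stood highest with both. Peg3 (chr7:6703892-6730431, minus strand), a paternally expressed zinc finger protein known for its role in maternal behaviour and fetal growth, was at 39.6 and 43.4 CPM in Veh, 82.5 and 80.5 with RA, 141 and 142 with NR, and 458 and 460.4 with NRRA. The 4 conditions did not overlap and the replicates of each lay close together. Peg3 rose by 0.97 on the log2 scale in RA vs Veh (SE 0.0545, adjusted p = 1.02e-13, edgeR), just under the 2-fold limit, by 1.77 with NR (SE 0.0526, adjusted p = 6.78e-20) and by 3.47 with NRRA (SE 0.0513, adjusted p = 1.51e-26). The RA response passed 2-fold without Veh replicate 2, at 1.06, and with library totals as the only scaling, at 1.075. Under restriction, RA raised Peg3 by 1.70 (SE 0.0445, adjusted p = 8.44e-21), and the difference between the media, 0.72, also passed (SE 0.0705, adjusted p = 2.89e-08).

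Zim1 (chr7:6671269-6696450, minus strand), a neighbouring zinc finger gene expressed from the maternal copy, was at 0.991 and 2.19 CPM in Veh, 4.64 and 5.10 with RA, 3.95 and 5.16 with NR, and 21.4 and 22.95 with NRRA. The Veh libraries were lowest, RA and NR overlapped, and NRRA stood above all the others. Its log2 fold changes against Veh were 1.64 with RA (SE 0.230, adjusted p = 1.97e-06), 1.55 with NR (SE 0.234, adjusted p = 4.88e-06) and 3.81 with NRRA (SE 0.171, adjusted p = 2.41e-16). With 20 and 42 counts in Veh these sizes depend on the control libraries, and without Veh replicate 2 they were 2.325, 2.235 and 4.48. Usp29 (chr7:6730578-6967219, plus strand), a paternally expressed ubiquitin protease gene, was at 2.23 and 2.19 CPM in Veh, 3.52 and 4.51 with RA, 2.22 and 3.11 with NR, and 4.82 and 4.72 with NRRA. Usp29 was higher with RA in both media, and was called in NRRA vs Veh (log2 fold change 1.11, SE 0.192, adjusted p = 1.86e-05). That call did not hold when trends with GC content and length were removed, where the value was 0.69. Of Usp29's exon bases, 14.3% are shared with the opposite-strand gene Zim3, and Zfp264, a further zinc finger gene of the domain, passed in NRRA without reaching 2-fold (0.78, SE 0.131, adjusted p = 1.07e-05).

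Peg3 and Usp29 start head to head, and the bases between their annotated starts serve as promoter for both. The interval is printed because both genes were called in NRRA vs Veh, at 11.1-fold for Peg3 and 2.16-fold for Usp29, and the upstream bases of Zim1 are set below it. Sequences are RefSeq's for build GRCm38.p6, cut to bases in no annotated exon, read 5′ to 3′ on the minus strand. Capitals would mark a match to any of 4 short motifs defined with the Zdbf2 sequence below, and there are none in either. The whole RefSeq window of 300 bases around the Zim1 start holds 1 match, to TGCCGC, outside the printed bases.
Peg3 and Usp29, chr7:6730432-6730577: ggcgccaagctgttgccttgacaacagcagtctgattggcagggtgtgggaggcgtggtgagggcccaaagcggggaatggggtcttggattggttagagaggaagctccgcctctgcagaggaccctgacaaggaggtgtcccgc
Zim1, chr7:6696451-6696682: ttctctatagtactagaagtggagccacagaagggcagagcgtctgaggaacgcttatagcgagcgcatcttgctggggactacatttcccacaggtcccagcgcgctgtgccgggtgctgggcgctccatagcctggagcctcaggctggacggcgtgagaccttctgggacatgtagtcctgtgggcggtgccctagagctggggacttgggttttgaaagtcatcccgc
The shared interval is 146 bases long and holds 5 CpG dinucleotides, and the Zim1 stretch of 232 bases holds 12.

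In the Dlk1–Dio3 cluster on distal chromosome 12, Dio3 rose with each treatment. Dio3 (chr12:110279068-110281097, plus strand) encodes type 3 deiodinase, the enzyme that inactivates thyroid hormone, and is expressed mainly from the paternal copy. Its counts in Veh were 7 and 4, or 0.347 and 0.208 CPM, and its level was 3.16 and 2.57 CPM with RA, 17.8 and 19.5 with NR, and 31.2 and 32.4 with NRRA. The 4 conditions did not overlap and followed the order Veh, RA, NR, NRRA. In RA vs Veh the log2 fold change was 3.31 (SE 0.327, adjusted p = 6.30e-09) and in NR vs Veh 6.04 (SE 0.209, adjusted p = 1.89e-18). In NRRA vs Veh it was 6.80 (SE 0.185, adjusted p = 5.52e-21), with a range of 6.50 to 7.22 when each library was left out in turn. RA added 0.76 under restriction (SE 0.0788, adjusted p = 9.96e-09), and the difference between the media was -2.54 (SE 0.359, adjusted p = 1.18e-05).

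Of the other genes of that cluster, Meg3, Rian, Mirg and Rtl1 rose with NR, and Dlk1 fell with RA. Meg3, a maternally expressed long noncoding RNA, was at 232.3 and 231.9 CPM in Veh, 241.2 and 241.1 with RA, 443 and 440.4 with NR, and 436 and 411 with NRRA. It rose by 0.93 with NR (SE 0.0410, adjusted p = 3.20e-16) and 0.87 with NRRA (SE 0.0408, adjusted p = 6.73e-16), and its change of 0.06 in RA did not pass (adjusted p = 0.303). Both restricted conditions were thus clearly separate from both conditions in complete medium. Rian, host of box C/D small nucleolar RNAs, was at 134 and 150.1 CPM in Veh, 142 and 135 with RA, 174 and 172.5 with NR, and 169 and 165 with NRRA (0.28 in NR vs Veh, SE 0.0506, adjusted p = 4.61e-05). Mirg, a microRNA host transcript, was at 5.55 and 4.69 CPM in Veh, 6.78 and 4.37 with RA, 10.1 and 10.3 with NR, and 7.79 and 8.51 with NRRA. Its log2 difference of 0.99 in NR vs Veh lay just below 2-fold (SE 0.153, adjusted p = 6.73e-06). The mature microRNAs processed from these transcripts are not measured by poly(A) libraries.

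Rtl1, a paternally expressed gene derived from a retrotransposon and needed in the placenta, was at 1.14 and 0.730 CPM in Veh, 1.38 and 1.01 with RA, 3.28 and 2.66 with NR, and 2.57 and 2.92 with NRRA. The restricted libraries all lay above the others, and Rtl1 rose by 1.64 with NR (SE 0.270, adjusted p = 1.67e-05) and 1.55 with NRRA (SE 0.265, adjusted p = 1.58e-05). MicroRNA hairpin genes, most of them on the opposite strand, share 8.40% of its exon bases. Dlk1, the paternally expressed Notch-like ligand of the cluster, behaved otherwise. It was at 27.99 and 23.45 CPM in Veh, 19.5 and 18.1 with RA, 30.1 and 29.2 with NR, and 22.4 and 22.5 with NRRA. Dlk1 fell by 0.46 on the log2 scale with RA (SE 0.0849, adjusted p = 7.69e-05) and rose by 0.20 with NR (SE 0.0797, adjusted p = 0.0429), and the interaction was 0.06 (adjusted p = 0.798).

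The bases upstream of the annotated Dio3 exon are printed because Dio3 had the largest change of the 45 in every comparison with Veh, plus strand, capitals as above.
Dio3, chr12:110278980-110279067: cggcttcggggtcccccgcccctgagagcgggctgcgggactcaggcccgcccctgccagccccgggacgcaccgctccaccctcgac
These 88 bases hold 10 CpG and no match to the 4 motifs, and the whole RefSeq window of 300 bases around the start holds 25 CpG.

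Fibroblast markers moved with these values. The marker sum was higher in NR than in Veh, as were Meg3, Rtl1, Mirg and Rian. In NR vs Veh 6 of the 14 markers were called higher and 1 lower (5.33% and 2.96% of all genes). Postn (1.68) and Pdgfra (1.10) were among the former besides collagen genes, and Twist2 (-1.48) was the latter. Twist1 (0.22) and Prrx1 (0.13) rose little, and Lum (0.13) did not pass. In NRRA vs Veh 3 of the 14 were called higher (Col1a1, Col3a1 and Postn) and 0 lower, beside 9.91% and 6.02% of all genes. By the adjusted p alone 8 were higher and 6 lower (30.1% and 28.7% of all genes), Lum (-0.74) and Twist2 (-0.30) among the latter. Expressed relative to the summed fibroblast marker counts, Meg3 stood at 1.89 and 1.85% in Veh, 2.31 and 2.49% with RA, 1.77 and 1.67% with NR, and 1.95 and 1.89% with NRRA. On this scale the NR libraries of Meg3 lay below those of Veh. Dio3 was at 0.00282 and 0.00166% in Veh, 0.0303 and 0.0265% with RA, 0.0713 and 0.0740% with NR, and 0.139 and 0.149% with NRRA. Peg3 was at 0.322 and 0.347% in Veh, 0.790 and 0.830% with RA, 0.564 and 0.540% with NR, and 2.05 and 2.12% with NRRA, so that RA lay above NR. Relative to the summed germ cell marker counts, Meg3 was 22.7 and 22.3% in Veh and 34.8 and 35.2% with NR. On that second scale Meg3 in NR thus lay above Veh. Rian, at 13.1 and 14.4% in Veh and 13.6 and 13.8% with NR, overlapped there. Peg3 was 7.64 and 7.09% with RA and 11.1 and 11.4% with NR on the second scale, so that NR lay above RA. In RA the fibroblast marker sum was lower than in Veh, while Dio3, Zim1 and Peg3 were higher. The part of feeder RNA in the NR and NRRA values was not tested.

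**Figure D3:**
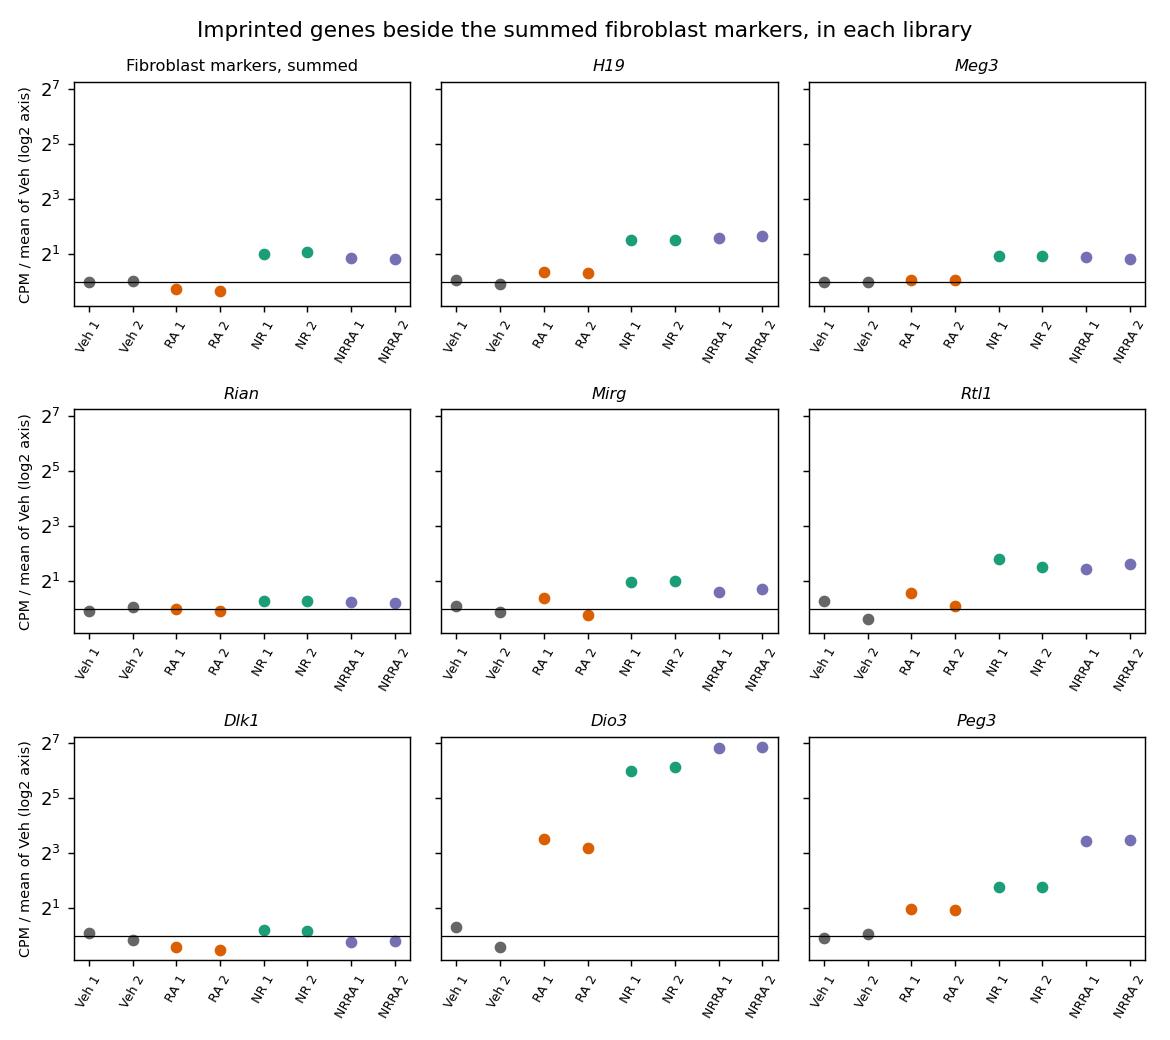
CPM of 8 imprinted genes and the summed CPM of 14 fibroblast markers in each of the 8 libraries, divided by the mean of the 2 Veh libraries (log2 axis, the same in every panel). Meg3, H19 and the marker sum rise in NR and NRRA, and Dio3 and Peg3 rise further. With RA the marker sum falls, while H19 (log2 fold change 0.34), Dio3 and Peg3 rise.

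At the Igf2–H19 locus on distal chromosome 7, H19 rose with NR and Igf2 did not reach 2-fold. H19 (chr7:142575529-142578143, minus strand), a maternally expressed noncoding RNA that shares an imprinting control region and enhancers with the growth factor gene Igf2, was at 113 and 102.5 CPM in Veh, 139 and 134 with RA, 307 and 304 with NR, and 319.9 and 339 with NRRA. The restricted libraries were all above the others. Its log2 fold changes were 0.34 with RA (SE 0.0507, adjusted p = 5.06e-06), 1.502 with NR (SE 0.0494, adjusted p = 6.53e-19) and 1.61 with NRRA (SE 0.0491, adjusted p = 6.03e-20). Relative to the fibroblast marker counts, H19 was 0.922 and 0.819% in Veh, 1.33 and 1.38% with RA, 1.23 and 1.16% with NR, and 1.43 and 1.56% with NRRA, so all treated libraries lay above Veh, and RA lay above NR on this scale. Relative to the summed germ cell marker counts, H19 was 11.1 and 9.85% in Veh and 12.9 and 11.8% with RA. It was 24.1 and 24.3% with NR and 24.5 and 25.6% with NRRA, so NR lay above RA on that scale. The part of feeder RNA was not tested.

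Igf2, paternally expressed, was at 20.8 and 19.4 CPM in Veh, 26.5 and 24.9 with RA, 23.2 and 25.25 with NR, and 18.9 and 19.3 with NRRA. It rose by 0.35 with RA (SE 0.0796, adjusted p = 0.000819) and 0.27 with NR (SE 0.0804, adjusted p = 0.00727), but in NRRA it differed from Veh by only -0.08 (SE 0.0807, adjusted p = 0.444). Under restriction it fell by 0.35 with RA (SE 0.0760, adjusted p = 0.000513), with an interaction of -0.70 (SE 0.110, adjusted p = 5.79e-05). Igf2 shares 62.8% of its exon bases with the same-strand gene Gm49394, so the count may leave out or misassign part of its reads. Gm49394 itself had 11 to 50 counts in a library.

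Plagl1, Grb10 and Zdbf2 lie in separate imprinted domains and all rose most in NRRA. Plagl1, a paternally expressed zinc finger regulator of cell proliferation, was at 13.9 and 16.99 CPM in Veh, 30.1 and 29.7 with RA, 31.99 and 31.7 with NR, and 54.8 and 55.7 with NRRA. The RA and NR libraries lay between Veh and NRRA, which did not overlap with any other condition. Its log2 fold changes were 0.95 with RA (SE 0.0826, adjusted p = 5.34e-10), 1.05 with NR (SE 0.0820, adjusted p = 5.23e-11) and 1.84 with NRRA (SE 0.0755, adjusted p = 3.52e-17). The single treatments lie so close to the 2-fold limit that the call for NR was lost without Veh replicate 1 (0.93) and with GC and length offsets (0.94), and RA crossed it without Veh replicate 2 (1.13).

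Grb10 encodes an adaptor that damps insulin and IGF receptor signalling and is maternally expressed in most tissues. It was at 188 and 190.4 CPM in Veh, 191.1 and 183 with RA, 259.5 and 267 with NR, and 410.1 and 416.5 with NRRA. The RA and Veh libraries overlapped (-0.02, SE 0.0428, adjusted p = 0.753), whereas NR raised it by 0.48 (SE 0.0423, adjusted p = 5.50e-10) and NRRA by 1.13 (SE 0.0418, adjusted p = 4.06e-18). The interaction of 0.67 passed below 2-fold (SE 0.0590, adjusted p = 5.71e-09). Relative to fibroblast marker counts Grb10 was 1.53 and 1.52% in Veh, 1.83 and 1.89% with RA, 1.04 and 1.02% with NR, and 1.83 and 1.92% with NRRA. On this scale RA and NRRA overlapped and NR was lowest. Relative to the summed germ cell marker counts, Grb10 was 18.4 and 18.3% in Veh and 17.7 and 16.1% with RA. It was 20.4 and 21.4% with NR and 31.5% in both NRRA libraries, so RA was lowest on that scale.

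Zdbf2, a paternally expressed gene active in the hypothalamus, was at 18.1 and 18.7 CPM in Veh, 39.2 and 48.6 with RA, 35.5 and 37.1 with NR, and 57.1 and 56.2 with NRRA. Every treated library lay above Veh. Zdbf2 rose by 1.27 with RA (SE 0.0855, adjusted p = 4.46e-12), 0.98 with NR (SE 0.0879, adjusted p = 6.93e-10) and 1.62 with NRRA (SE 0.0820, adjusted p = 3.13e-15), with an interaction of -0.63 (SE 0.113, adjusted p = 0.000291). The NR value passed 2-fold without Veh replicate 2 (1.02), without NR replicate 1 (1.03) and with library totals alone (1.01). Adam23, a gene near Zdbf2 on chromosome 1, was called in NR (1.17, SE 0.0541, adjusted p = 9.50e-16) and NRRA (1.05, SE 0.0537, adjusted p = 3.79e-15).

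**Figure D4:**
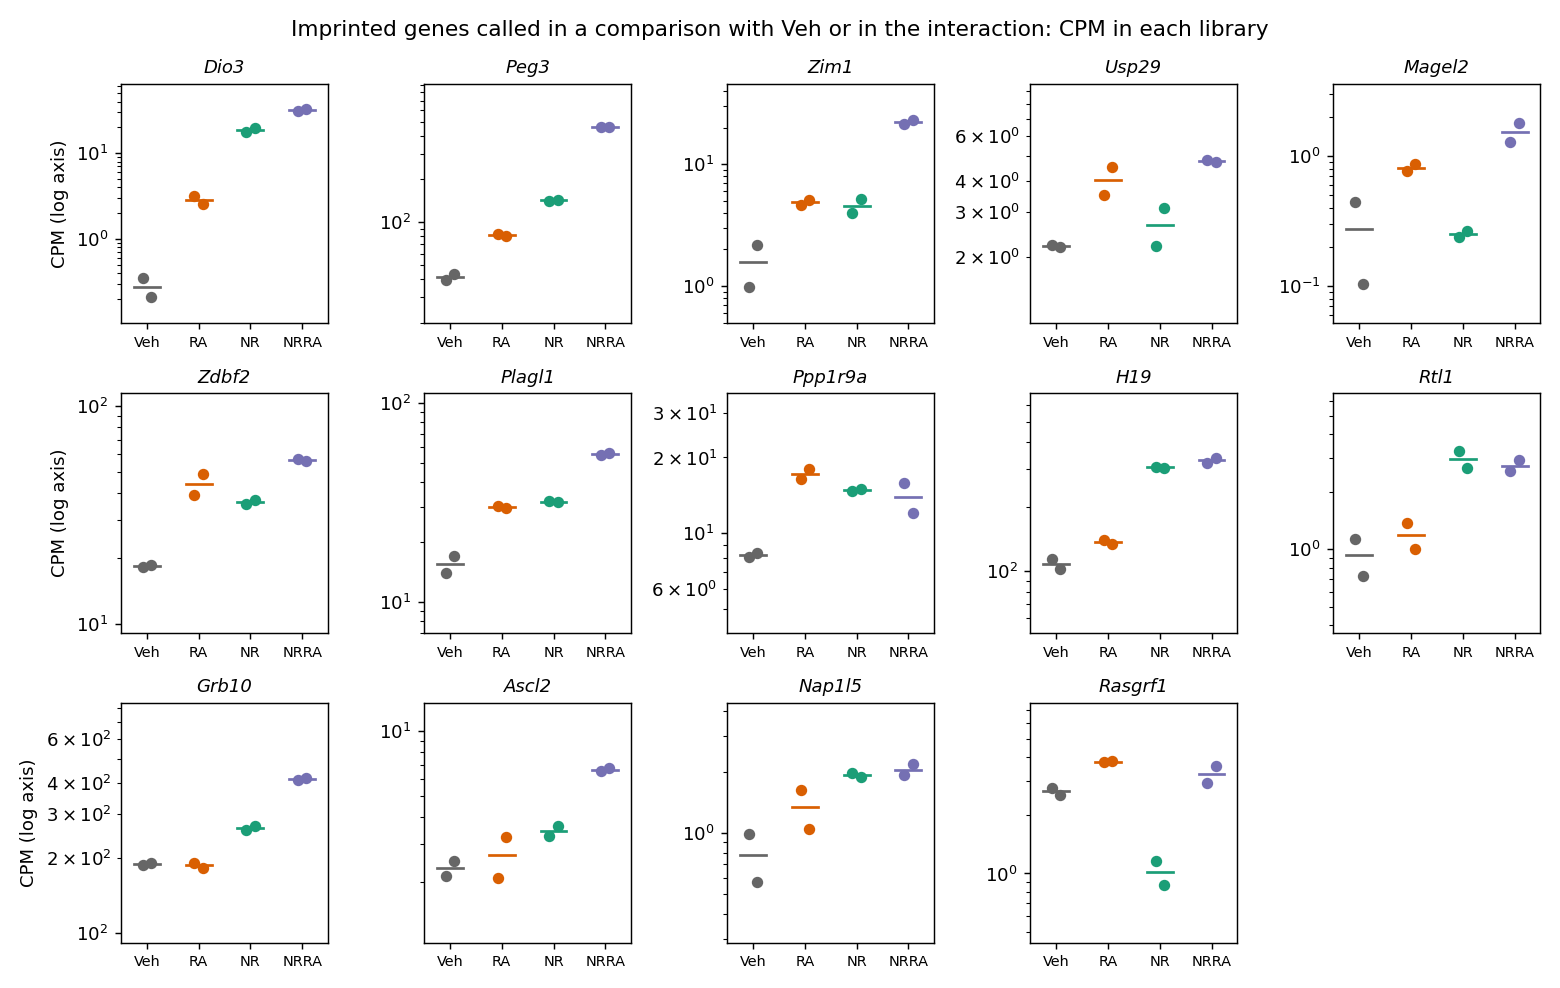
CPM (log axis, set for each panel) in each library of the 14 imprinted genes called in a comparison with Veh or in the interaction; points are libraries and lines are means of 2. Peg3, Zim1, Plagl1 and Grb10 are highest in NRRA, H19 and Rtl1 are high in both restricted conditions, and Rasgrf1 is low in NR alone.

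A set of 4 motifs, chosen with these results known, was searched on both strands of the RefSeq windows from 250 bases before to 50 bases after each start, of which 56 belong to 37 of the 45 genes. They were TGCCGC, the hexamer read by the imprint-protecting factor ZFP57, GCCATNTT, a core of the YY1 site, AGGTCA, the half-site of nuclear receptors that include those for RA, and TGATGNAA, an element of ATF4 and C/EBP factors. No motif contains another. TGCCGC was in 14 of the 56 windows, or 25% (11.6% of all 32851 windows), and AGGTCA in 4, or 7.14% (16.3% of all). GCCATNTT was in 2, or 3.57% (6.05% of all), and TGATGNAA in 0 (3.97% of all). The median CpG count was 15 in the members' windows and 7 in all windows. TGCCGC itself contains a CpG, and the shares were not adjusted for CpG content. Windows can also overlap, as for Mest, whose windows from 30737800 and 30737803 hold the same 2 TGCCGC matches. The Zdbf2 window farthest upstream is printed because it held 3 TGCCGC matches, more than any other member window, plus strand with matches in capitals.
Zdbf2, chr1:63200108-63200312: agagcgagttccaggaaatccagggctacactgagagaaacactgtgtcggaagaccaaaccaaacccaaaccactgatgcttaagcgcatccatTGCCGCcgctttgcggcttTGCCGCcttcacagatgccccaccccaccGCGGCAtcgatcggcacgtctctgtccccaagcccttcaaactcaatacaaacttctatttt
These are matches of letters only. Methylation and factor binding were not measured.

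In the Prader–Willi region of chromosome 7, RA raised Magel2, and no neighbour reached 2-fold. Magel2, a paternally expressed MAGE family gene acting in protein recycling, was at 0.446 and 0.104 CPM in Veh (9 and 2 counts), 0.765 and 0.867 with RA, 0.241 and 0.266 with NR, and 1.29 and 1.798 with NRRA. The RA and NRRA libraries lay above all those without RA. The log2 fold change was 1.54 in RA vs Veh (SE 0.504, adjusted p = 0.0149), 2.45 in NRRA vs Veh (SE 0.435, adjusted p = 2.55e-05) and 2.58 in NRRA vs NR (SE 0.421, adjusted p = 1.44e-05), and NR alone gave -0.13 (SE 0.650, adjusted p = 0.894). At such low counts the RA call rests on single libraries. Its adjusted p was 0.184 without Veh replicate 2 (log2 fold change 0.90) and 0.0975 without RA replicate 2 (1.44), and 0.0576 by DESeq2, and without Veh replicate 1 the size was 2.95. The NRRA vs Veh value ranged from 1.79 without Veh replicate 2 to 3.84 without Veh replicate 1 and was called in both.

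The neighbouring genes of that region were Ndn, Mkrn3, Peg12, Snrpn and Ube3a. Ndn, a MAGE family gene related to Magel2, was at 82.8 and 76.4 CPM in Veh, 73.15 and 68.8 with RA, 66.4 and 65.99 with NR, and 73.4 and 73.4 with NRRA, and fell by 0.27 with NR (SE 0.0559, adjusted p = 0.000323). Peg12 was at 6.34 and 6.57 CPM in Veh, 5.10 and 4.44 with RA, 4.14 and 3.80 with NR, and 3.93 and 3.56 with NRRA, and fell by 0.79 with NRRA (SE 0.145, adjusted p = 4.15e-05). Peg12 was thus lower in every treated library than in Veh. Mkrn3, a ring finger gene known as a brake on puberty, was at 3.17 and 3.13 CPM in Veh, 3.925 and 3.88 with RA, 3.42 and 3.15 with NR, and 4.07 and 4.27 with NRRA (0.41 in NRRA vs Veh, SE 0.164, adjusted p = 0.0356).

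Snrpn was at 4.51 and 5.52 CPM in Veh, 6.12 and 5.51 with RA, 3.565 and 4.40 with NR, and 5.47 and 4.43 with NRRA, and passed in none of these comparisons (adjusted p = 0.144 in NR vs Veh). It shares 27.3% of its exon bases with Gm38393 and 10% with Snurf, both on the same strand. Ube3a, the maternally expressed ubiquitin ligase of Angelman syndrome, was at 80.7 and 88.5 CPM in Veh, 109.7 and 121 with RA, 101.5 and 103.5 with NR, and 120.3 and 118 with NRRA. It rose by 0.45 with RA (SE 0.0556, adjusted p = 2.67e-07) and 0.49 with NRRA (SE 0.0549, adjusted p = 1.72e-08). The opposite-strand transcript Snhg14, which shares 8.74% of the Ube3a exon bases, had 280 to 634 counts.

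The upstream bases of Magel2 are printed because Magel2 followed RA in both media. They lie on the plus strand, with no match to the motifs.
Magel2, chr7:62376729-62376978: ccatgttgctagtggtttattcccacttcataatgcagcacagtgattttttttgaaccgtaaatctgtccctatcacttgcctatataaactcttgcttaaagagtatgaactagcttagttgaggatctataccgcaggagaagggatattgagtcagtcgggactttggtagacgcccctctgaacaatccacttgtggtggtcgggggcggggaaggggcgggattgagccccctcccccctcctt
The printed 250 bases hold 7 CpG.

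In the Kcnq1 domain of chromosome 7, Ascl2 was the only member called. Ascl2, a maternally expressed bHLH factor of trophoblast and intestinal stem cells, was at 2.13 and 2.501 CPM in Veh, 2.09 and 3.225 with RA, 3.28 and 3.645 with NR, and 6.54 and 6.74 with NRRA. The NRRA libraries stood above all others, and the log2 fold change was 1.52 in NRRA vs Veh (SE 0.180, adjusted p = 5.17e-08), against 0.25 in RA (adjusted p = 0.381) and 0.59 with NR (SE 0.209, adjusted p = 0.0239). The interaction of 0.68 did not pass (SE 0.273, adjusted p = 0.104). Cdkn1c, the maternally expressed inhibitor of cyclin-dependent kinases, was at 29.8 and 26.8 CPM in Veh, 41.8 and 41.2 with RA, 25.01 and 26.65 with NR, and 35.4 and 37.6 with NRRA. It was higher with RA in both media, by 0.55 in RA vs Veh (SE 0.0700, adjusted p = 4.49e-07) and 0.50 in NRRA vs NR (SE 0.0684, adjusted p = 1.25e-06), and 30.7% of its exon bases are shared with the opposite-strand gene Gm44732.

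Kcnq1ot1, the paternally expressed noncoding RNA of that domain, was at 24.8 and 20.6 CPM in Veh, 28.04 and 34.9 with RA, 30.9 and 30.3 with NR, and 34.1 and 26.8 with NRRA, with log2 fold changes of 0.48, 0.43 and 0.42 against Veh that all passed. Slc22a18, a transporter gene, was at 4.16 and 2.66 CPM in Veh, 3.77 and 3.19 with RA, 6.07 and 5.47 with NR, and 5.11 and 5.43 with NRRA. It was higher in both restricted conditions, by 0.74 with NR (SE 0.178, adjusted p = 0.00120). Osbpl5, a lipid transfer protein gene, was at 104.7 and 103 CPM in Veh, 98.6 and 92.2 with RA, 81.6 and 86.1 with NR, and 90.5 and 86.4 with NRRA (-0.31 in NR, SE 0.0530, adjusted p = 2.87e-05). Phlda2, a placental growth restrainer, was at 1.83 and 1.93 CPM in Veh, 2.04 and 2.185 with RA, 1.445 and 2.05 with NR, and 1.29 and 1.25 with NRRA (-0.57 in NRRA, adjusted p = 0.0577).

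In the Peg10–Sgce cluster of proximal chromosome 6, Ppp1r9a rose with each treatment, and Peg10 and Sgce changed in opposite directions with RA. Ppp1r9a, a gene for an actin-binding regulator of protein phosphatase 1 that is maternally expressed in some tissues, was at 8.02 and 8.34 CPM in Veh, 16.4 and 17.96 with RA, 14.7 and 14.9 with NR, and 15.8 and 12.1 with NRRA. Every treated library was above Veh, and the log2 fold changes were 1.08 with RA (SE 0.119, adjusted p = 4.53e-08), 0.86 with NR (SE 0.123, adjusted p = 2.21e-06) and 0.76 with NRRA (SE 0.120, adjusted p = 5.03e-06). Under restriction the difference with RA, -0.10, did not pass (SE 0.104, adjusted p = 0.495), and the interaction was -1.17 (SE 0.159, adjusted p = 6.56e-06). The RA value fell below 2-fold, to 0.92, with GC and length offsets, and the interaction to -0.98 without NRRA replicate 2.

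Peg10, a retrotransposon-derived gene essential in the placenta, was at 27.2 and 30.5 CPM in Veh, 40.3 and 41.6 with RA, 31.6 and 32.35 with NR, and 24.6 and 24.01 with NRRA. RA raised it in complete medium, by 0.51 (SE 0.0689, adjusted p = 1.22e-06), and under restriction it fell by 0.40 with RA (SE 0.0688, adjusted p = 3.28e-05), with an interaction of -0.90 (SE 0.0974, adjusted p = 1.64e-07). Sgce, the sarcoglycan gene that starts head to head with Peg10, moved the other way. It was at 17.5 and 16.9 CPM in Veh, 15.1 and 13.1 with RA, 20.5 and 20.1 with NR, and 24.6 and 22.4 with NRRA, with an interaction of 0.51 (SE 0.123, adjusted p = 0.00533). Asb4, a maternally expressed component of ubiquitin ligases, was at 1.78 and 2.87 CPM in Veh, 1.325 and 1.21 with RA, 5.20 and 3.99 with NR, and 1.89 and 1.83 with NRRA. It was highest in NR and was called lower in NRRA vs NR (-1.29, SE 0.202, adjusted p = 8.47e-06), while its rise of 0.97 in NR vs Veh (SE 0.212, adjusted p = 0.000478) stayed just under 2-fold.

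Mest, a paternally expressed hydrolase-like gene of chromosome 6 that is abundant in fetal mesoderm, was at 29.6 and 27.7 CPM in Veh, 15.45 and 14.6 with RA, 41.5 and 42.2 with NR, and 19.1 and 20 with NRRA. Its conditions did not overlap, with RA lowering it in both media. It fell by 0.94 in RA vs Veh (SE 0.0787, adjusted p = 2.97e-10) and by 1.10 in NRRA vs NR (SE 0.0678, adjusted p = 4.84e-13), and rose by 0.55 in NR vs Veh (SE 0.0682, adjusted p = 2.43e-07). Of its exon bases, 23.1% are shared with the opposite-strand gene Copg2.

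Nap1l5, a paternally expressed retrogene in an intron of Herc3, was at 0.991 and 0.573 CPM in Veh (20 and 11 counts), 1.63 and 1.04 with RA, 1.975 and 1.898 with NR, and 1.93 and 2.18 with NRRA. The restricted libraries lay above the others, with log2 fold changes of 1.29 with NR (SE 0.316, adjusted p = 0.00151) and 1.38 with NRRA (SE 0.302, adjusted p = 0.000309). Without Veh replicate 2 the NR value was 0.98 and no longer called, and RA vs Veh, 0.71 and not passing (adjusted p = 0.0977), was called without Veh replicate 1 (1.19) or without RA replicate 2 (1.05). Herc3, the host gene on the opposite strand, was called in NRRA (1.07, SE 0.0629, adjusted p = 7.52e-14).

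Rasgrf1, a paternally expressed exchange factor for Ras proteins, was the only member called lower against Veh. It was at 2.77 and 2.55 CPM in Veh, 3.77 and 3.81 with RA, 1.16 and 0.873 with NR, and 2.93 and 3.63 with NRRA. The NR libraries lay below all the others, and those of NRRA above those of Veh. The log2 fold change was -1.41 in NR vs Veh (SE 0.253, adjusted p = 5.22e-05), 0.51 in RA vs Veh (SE 0.193, adjusted p = 0.0349) and 1.72 in NRRA vs NR (SE 0.227, adjusted p = 6.80e-07). The interaction of 1.21 (SE 0.308, adjusted p = 0.00848) was lost by DESeq2 (adjusted p = 0.0546), without NR replicate 2 (adjusted p = 0.116) and without NRRA replicate 2 (adjusted p = 0.0586).

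The interaction, the log2 effect of RA under restriction minus that in complete medium, was called for 3 of the 45 genes, 1 higher (Rasgrf1) and 2 lower (Dio3 and Ppp1r9a), beside 0.786% and 1.46% of all genes. By the adjusted p alone it passed for 7 members higher and 8 lower, beside 1304 higher and 1348 lower of all 20477 genes tested. Without NRRA replicate 2 only Dio3 was called. In NRRA vs RA, 7 members were called higher (Dio3, Peg3, Zim1, Ascl2, H19, Rtl1 and Grb10) and 0 lower, beside 4.61% and 3.68% of all genes. In NRRA vs NR, 4 were called higher (Magel2, Zim1, Rasgrf1 and Peg3) and 2 lower (Asb4 and Mest), beside 4.56% and 4.14%.

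**Figure D5:**
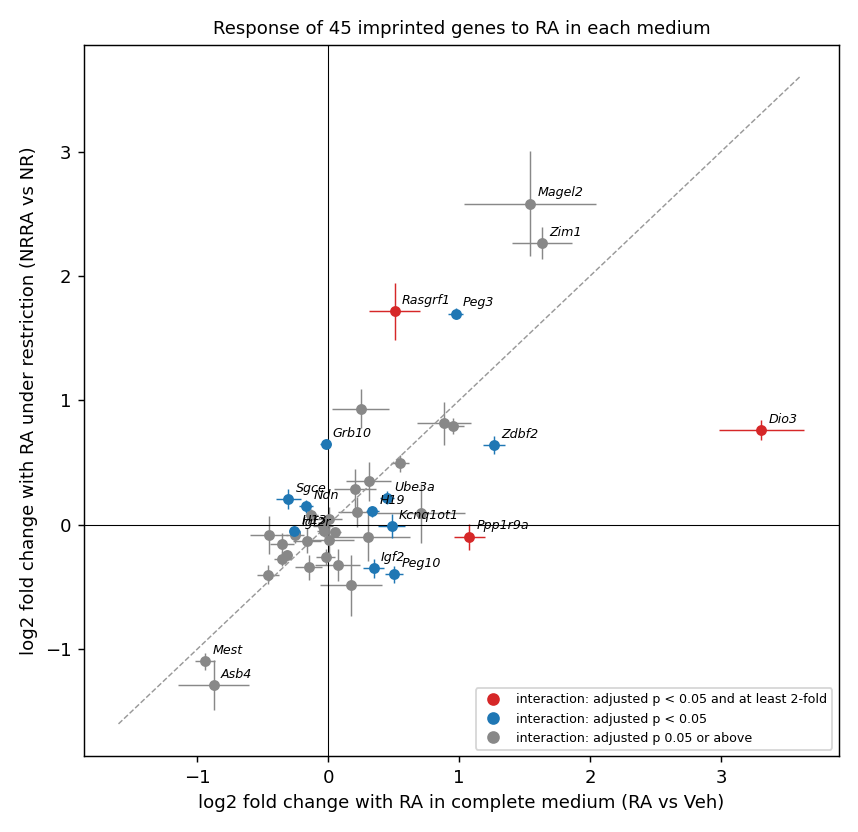
Log2 fold change with RA in complete medium (horizontal) and under nutrient restriction (vertical) for each of the 45 imprinted genes, with standard errors; the dashed line marks equal response. Dio3 and Ppp1r9a (red) lie below the line at 3.31 and 1.08 in complete medium, and Rasgrf1 (red) and Peg3 (blue) above it at 1.72 and 1.70 under restriction.

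The remaining 12 members were called in none of the 6 comparisons. They were Gnas, Igf2r, Airn, Impact, Mcts2, H13, Inpp5f, Peg13, Trappc9, Zrsr1, Commd1 and Nnat. Their log2 fold changes against Veh lay between -0.42 (H13 in NRRA) and 0.71 (Airn in NRRA). Gnas, whose main product is the stimulatory G protein alpha subunit, fell by 0.31 with RA (SE 0.0389, adjusted p = 2.61e-07) and by 0.37 with NRRA (SE 0.0388, adjusted p = 5.49e-09). Of its exon bases, 13.1% are shared with the opposite-strand gene Gm20721 and 8.83% with Nespas. Gm20721 had 16289 and 15903 counts in Veh, beside 17680 and 17017 for Gnas, and similar log2 fold changes (-0.281 with RA, -0.341 with NRRA). Reads of Gnas and Gm20721 may therefore be the same in part. Igf2r, the receptor that clears IGF2, fell by 0.25 with RA (SE 0.0369, adjusted p = 3.41e-06), while in NR it differed from Veh by -0.02 (adjusted p = 0.753). Airn, the noncoding RNA antisense to Igf2r, was higher in NR (0.61, SE 0.139, adjusted p = 0.000754) and NRRA.

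Among 20 factors known to set, protect or erase imprints, 19 were tested, with 0 called higher and 1 lower with RA, 1 higher and 0 lower with NR, and 1 higher and 2 lower with NRRA. The shares of all genes called higher and lower were 4.74% and 2.75% with RA, 5.33% and 2.96% with NR, and 9.91% and 6.02% with NRRA. Dppa3, which protects methylated DNA in the early embryo, was at 1.78 and 1.09 CPM in Veh, 0.153 and 0.139 with RA, 5.25 and 4.97 with NR, and 0.107 and 0.0642 with NRRA. It was called lower in RA at 3 and 4 counts (adjusted p = 1.86e-06) and in NRRA at 3 and 2 counts (adjusted p = 7.06e-08), too few for a fold in either, and rose by 1.815 with NR (SE 0.225, adjusted p = 2.24e-07). Dnmt3l, the cofactor of de novo methylation in the male germ line, fell by 1.505 with NRRA (SE 0.216, adjusted p = 1.20e-06), and Tet3, a methylcytosine oxidase, rose by 1.04 (SE 0.0522, adjusted p = 2.83e-15). Zfp57 was at 16.3 and 16.8 CPM in Veh and 11.5 and 14.2 in NRRA (-0.36, SE 0.0980, adjusted p = 0.00271), and Zfp445 rose by 0.71 with NRRA (SE 0.0734, adjusted p = 4.77e-09). Neither reached 2-fold.

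Of 32 further imprinted genes outside the 45, 25 were tested. RA gave 1 call higher and 0 lower, beside 4.74% and 2.75% of all genes. NR gave 1 call on each side (5.33% and 2.96% of all genes). NRRA gave 7 calls higher and 1 lower (9.91% and 6.02% of all genes). Their medians were -0.07, 0.05 and -0.06, beside all-gene medians of -0.02, 0.0057 and 0.03. The NRRA calls were Klf14 (2 and 1 counts in Veh, 16 and 20 in NRRA), Ddc (1.46), Cobl (1.345), Kcnk9 (1.31), Phactr2 (1.20), Herc3 and Adam23 on the higher side and Tfpi2 on the lower side. Ddc and Cobl neighbour Grb10 and, like it, were highest in NRRA, at 6.90 and 6.935 CPM for Ddc and 9.93 and 10.1 for Cobl, against 2.53 and 2.501 for Ddc and 3.52 and 4.38 for Cobl in Veh. Tfpi2, a protease inhibitor gene near Peg10, was at 65.03 and 74.2 CPM in Veh, 30.8 and 29.8 in NR, and 18.2 and 16.2 in NRRA, falling by 1.20 with NR (SE 0.0712, adjusted p = 1.68e-13) and 2.02 with NRRA (SE 0.0746, adjusted p = 3.70e-18).

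Among 12 genes whose products act with those of imprinted genes, 11 were tested. Of these, 1 was called higher in RA (4.74% of all genes), 1 lower in NR (2.96%) and 2 lower in NRRA (6.02%). Dio2, the deiodinase that activates thyroid hormone and so opposes DIO3, was at 6.24 and 8.81 CPM in Veh, 27.02 and 29.4 with RA, 2.505 and 2.24 with NR, and 9.58 and 10.6 with NRRA. Dio2 rose with RA (1.92, SE 0.113, adjusted p = 3.03e-13) and fell by 1.67 with NR (SE 0.177, adjusted p = 1.66e-08), whereas Dio3 rose with both. Igf2bp1, an RNA-binding protein of Igf2 mRNA, fell by 1.19 with NRRA (SE 0.0421, adjusted p = 1.36e-18). Notch1, the receptor counterpart of Dlk1, fell by 1.205 (SE 0.05, adjusted p = 4.57e-17). Igf1r, the receptor through which IGF2 signals, was at 211.5 and 217 CPM in Veh, 157 in both RA libraries, 296 and 299.9 in NR, and 221 and 219 in NRRA.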

How the data were processed

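Gene counts of 8 libraries (4 conditions, 2 libraries each) were analysed as deposited. Per the labels, the authors aligned reads to mm10 with STAR 2.6.1c and counted them with featureCounts 1.6.4; the strand setting of the counting and its annotation are not given in the sources used here, so reads of overlapping opposite-strand genes cannot be told apart. The study's methods describe stranded libraries from oligo dT captured mRNA, whereas the labels name other kits. Totals were 19261333 to 30023585 counts. The p-values rest on the spread between the 2 libraries of a condition, estimated jointly over the 4 conditions with information shared across genes. Replicates differed most for Veh, with a chi-square per gene of 3.93. This value was 2.12 for the RA pair, 1.73 for the NRRA pair and 1.58 for the NR pair. The joint estimate may therefore understate the error of comparisons with Veh. The common biological coefficient of variation was 3.35%. The p-values do not measure variation among cultures beyond these libraries.

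Counts were fitted with edgeR 4.0.16 (R 4.3.3; TMM scaling, filterByExpr, quasi-likelihood F test, 1 coefficient per condition, all 8 libraries, 4 residual degrees of freedom), with Benjamini-Hochberg adjustment over all 20477 genes of a comparison. CPM are TMM-scaled. The standard error is the log2 fold change divided by the square root of F. Coordinates and exon lengths are from GENCODE M21 (GRCm38), and 55240 of 55421 identifiers matched. The method was tested on simulated counts. Alternatives were library totals, DESeq2 1.42.0 size factors and Wald test, no filter, no fold threshold, each library left out, only the compared conditions in the fit, GC and length offsets and a replicate block.

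The members, gene lists and named genes were chosen with earlier results of these data known. Values in every library are given for members called in a comparison with Veh or in the interaction and for their cluster partners, the others are given by range, and list genes are named where called.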

Additional observations from a re-analysis of the deposited data

Results flagged for a closer look

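For 3 imprinted genes the response to RA differed between complete and restricted medium by the interaction test of edgeR, at 2-fold or more. For Dio3 the difference was -2.54 on the log2 scale (adjusted p = 1.18e-05), and it ranged from -3.00 to -2.28 when each library was left out in turn. For Ppp1r9a it was -1.17 (adjusted p = 6.56e-06), and it was -0.98, short of 2-fold, without NRRA replicate 2. For Rasgrf1 it was 1.21 (adjusted p = 0.00848), with adjusted p = 0.116 without NR replicate 2, 0.0586 without NRRA replicate 2 and 0.0546 by DESeq2.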

How the results depend on the processing

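With no fold threshold, 27 members passed in RA vs Veh, 32 in NR vs Veh, 35 in NRRA vs Veh, 27 in NRRA vs RA, 24 in NRRA vs NR and 15 in the interaction, in place of 5, 8, 12, 7, 6 and 3 called. Of all 20477 genes tested, 8837, 8985, 12051, 8254, 8888 and 2652 passed, in the same order. Leaving out each library in turn gave 1 to 4 calls in the interaction (1 without NRRA replicate 2), 5 to 7 in RA vs Veh, 8 to 10 in NR vs Veh, 12 in NRRA vs Veh, and 6 to 8 in NRRA vs RA and in NRRA vs NR, with Rtl1 lost in NRRA vs RA without RA replicate 2. By DESeq2, Magel2 was lost in RA vs Veh, leaving 4, and Rasgrf1 in the interaction, leaving 2. With library totals as the only scaling the all-gene median moved by 0.102 in RA vs Veh and 0.114 in NRRA vs Veh, and 7, 11 and 12 members were called against Veh. The replicate numbers do not pair the samples, since deviations of same-numbered libraries correlated between -0.0462 and 0.0342. With the replicate block, 9 members were called in NR vs Veh, Mirg being added to the 8, and the other counts were as without it.

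In the alternatives, directions were followed only for members called in a comparison with Veh or in the interaction. Among those, directions turned for 4 values, none of which passed in the main fit. Usp29 in NR vs Veh was -0.034 with GC and length offsets and -0.043 with the block added. Grb10 in RA vs Veh was 0.082 with library totals and 0.0093 with only the compared conditions fitted, and ranged from -0.051 to 0.014 without single libraries. Magel2 in NR vs Veh ranged from -0.78 to 1.27 and Ascl2 in RA vs Veh from -0.14 to 0.48. The cause was not tested. Counts of 2 to 48 per Veh library limit the precision for Dio3, Magel2, Zim1, Rtl1, Nap1l5, Usp29, Phlda2 and Ascl2.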
